A study of Mus musculus with 30 samples.

Results

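The history of obesity was compared in the livers of 24 male wild-type C57BL6/J mice, as the mean of a comparison made on control diet and of a comparison made after HFD refeeding. Formerly obese mice had spent 20 weeks on HFD, a diet rich in fat and sucrose, and the next 7 weeks on control diet, and lean mice had received control diet for 27 weeks. Formerly obese refed and lean refed mice had the same past and then ate HFD for 48 h. Each of these 4 groups held 6 mice, all labelled as 35 weeks old, and the 6 continuously obese livers among the 30 of the series were left out. Total liver RNA was amplified and hybridised to Affymetrix Mouse Gene 2.0 ST arrays, which give 1 log2 level for each probe set. The labels number the replicates of a group without saying which mice shared a cage or litter, so the *P* values measure the spread between mice of 1 experiment.

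The liver is mainly built of hepatocytes, which make bile acids, plasma proteins and lipoproteins. Kupffer cells, its resident macrophages, line the sinusoids, take up particles and aged blood cells, and present antigen. Diet-induced obesity is known to add monocyte-derived macrophages to them, and macrophages carry Fc receptors, complement C1q and a lysosomal machinery that few other liver cells share.

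The history difference is the mean of formerly obese minus lean and of formerly obese refed minus lean refed on the log2 scale, fitted with limma over the 41345 probe sets of all 24 livers. The criteria asked for a limma *P* under 0.01, a change of more than 1.2-fold and, in 1 group or more, a linear average above 8. The *P* values printed for single genes come from two-sided exact permutation tests within the diets. These criteria were passed by 409 probe sets, 0.989% of those tested, of which 258 were higher and 151 lower in mice with a history of obesity. Of the 22184 genes with a single symbol, 140 rose (0.631%) and 66 fell (0.298%). Together they made 0.929% of these genes, and 3 of them moved by more than 1 on the log2 scale. No probe set passed a Benjamini-Hochberg FDR of 10% in limma, where the smallest adjusted *P* was 0.250 and was shared by 13 probe sets. At an unadjusted *P* under 0.05 there were 2572 probe sets, whereas 2067 would be expected by chance. All directions given below therefore rest on the unadjusted criteria.

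Macrophage genes led the genes that rose. Of 20 measured markers of macrophages of any origin, 20 were higher on average and 15 passed the criteria upwards, against 0.631% of all genes. At limma *P* under 0.05, 17 of these markers were higher, against 3.24% of all genes. Their median history difference was 0.39, while that of all genes was 0.00, with 10837 of 22184 genes higher on average. The 15 were *Adgre1*, *Aif1*, *C1qa*, *C1qb*, *C1qc*, *Cd68*, *Csf1r*, *Ctss*, *Fcer1g*, *Fcgr1*, *Laptm5*, *Lyz2*, *Mpeg1*, *Msr1* and *Tyrobp*, and the remaining 5 were *Cd14*, *Fcgr3*, *Lgmn*, *Mertk* and *Mrc1*. In whole liver, a larger number of macrophages and more RNA per macrophage cannot be told apart.

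*Cd68*, a glycoprotein of macrophage lysosomes, had linear levels of 105, 160 and 200 (lowest, median and highest of 6 livers) in formerly obese mice against 83.5, 107 and 133 in lean mice. After refeeding it had 128, 134 and 204 in formerly obese refed against 59.4, 91.2 and 106 in lean refed mice. The refed groups did not overlap, as for 0.307% of all genes, and on control diet 5 of 6 formerly obese livers lay above the lean mean. *Cd68* rose with the history by 0.68 on the log2 scale (exact permutation *P*=4.22e-05, SE 0.125).

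*C1qb*, a chain of the first complement component that macrophages secrete, had levels of 92.2, 131 and 186 in formerly obese against 64.1, 85.8 and 111 in lean mice. It had 102, 128 and 144 in formerly obese refed against 68.7, 98.7 and 121 in lean refed mice. Both pairs of groups overlapped, but all 12 livers with a history of obesity lay above the mean of their lean group. *C1qb* differed by 0.51 (exact permutation *P*=0.000244, SE 0.114). The other chains, *C1qc* at 0.34 (exact permutation *P*=0.00151) and *C1qa* at 0.35 (*P*=0.00204), rose as well.

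*Cybb*, the catalytic subunit of the phagocyte oxidase, had levels of 51.3, 87.3 and 124 in formerly obese against 47.4, 59.4 and 66.2 in lean mice. It had 62.4, 85.8 and 125 in formerly obese refed against 30.1, 50.5 and 57.8 in lean refed mice, which did not overlap. It rose by 0.68 (exact permutation *P*=0.000136, SE 0.143). *Fcgr1*, the high-affinity IgG receptor, showed the reverse pattern of overlap. It had 23.6, 28.0 and 30.1 in formerly obese against 15.9, 18.6 and 20.4 in lean mice, which did not overlap, as for 0.347% of all genes. It had 18.2, 25.3 and 41.8 in formerly obese refed against 13.4, 22 and 25.2 in lean refed mice. *Fcgr1* rose by 0.46 (exact permutation *P*=0.000326, SE 0.109).

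*Tyrobp*, the signalling adaptor of myeloid receptors, had levels of 172, 355 and 424 in formerly obese against 198, 230 and 292 in lean mice, so the lowest formerly obese liver lay below all lean livers. It had 241, 347 and 401 in formerly obese refed against 100, 204 and 232 in lean refed mice, without overlap. *Tyrobp* rose by 0.62 (exact permutation *P*=0.00154, SE 0.156). *Ctss*, the cathepsin that trims the MHC class II invariant chain, rose by 0.57 (exact permutation *P*=0.00199, SE 0.154). No gene of the array separated both pairs of groups without overlap in the same direction. The genes described were chosen in part by a small *P*, which favours groups that do not overlap. Over all genes, 0.307% did not overlap between the refed groups and 0.347% on control diet.

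**Figure D1:**
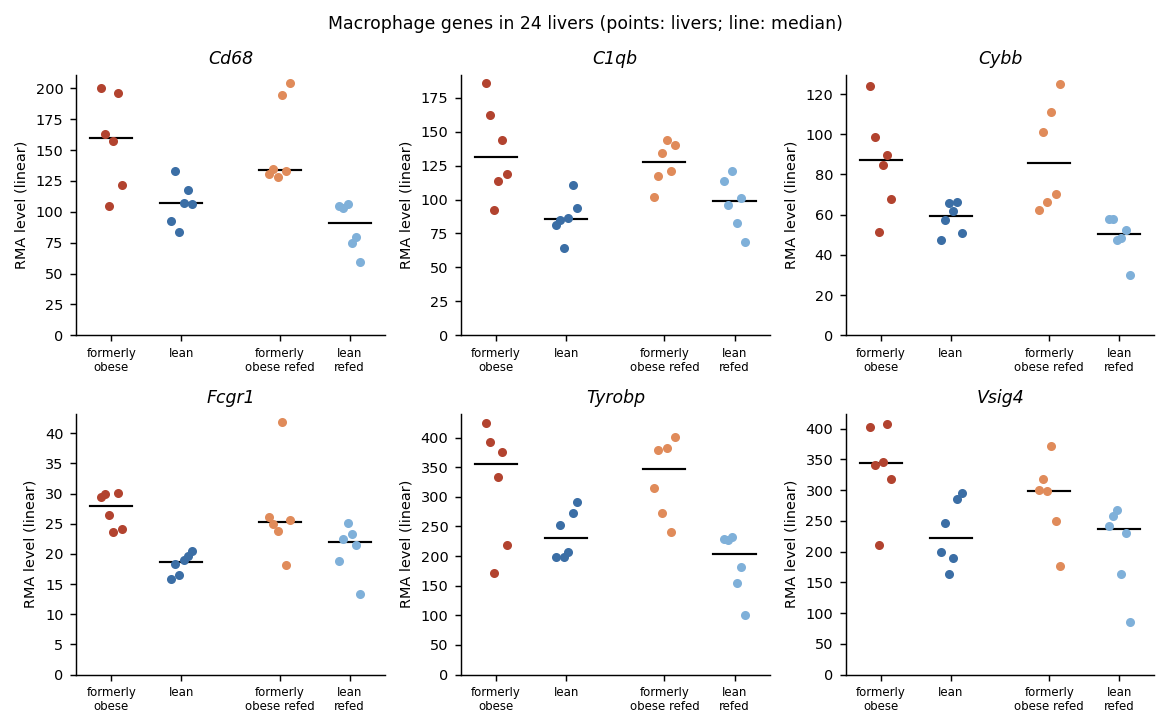
Linear RMA levels of 6 macrophage genes in each of 24 livers, with formerly obese left of lean mice on control diet and formerly obese refed left of lean refed mice after HFD. Points are livers and lines are medians. *Cd68*, *Cybb* and *Tyrobp* do not overlap between the refed groups, *Fcgr1* does not overlap between the groups on control diet, and *C1qb* and *Vsig4* overlap in both.

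The promoters of 4 genes that rose are shown because they carry a motif of a macrophage factor, a motif of the interferon response, or both. They are RefSeq promoters of the build GRCm38.p6, covering 250 bases before and 50 after the start site. Capitals mark GAGGAAGT, a sequence bound by the macrophage factor PU.1, or GAAA followed after 2 bases by another GAAA, the core of the interferon-stimulated response element (ISRE), each on either strand. *Ctss* (cathepsin S, chr3:95526536-95526835, plus strand) holds both. *C1qc* (a chain of C1q, chr4:136892865-136893164, minus strand) holds the first. *Cybb* (phagocyte oxidase, chrX:9469275-9469574, minus strand) holds the second 3 times. *Ifi205* (an interferon-inducible DNA sensor of the HIN-200 family, chr1:174031706-174032005, minus strand) holds the second once before and once after the start site.
Ctss: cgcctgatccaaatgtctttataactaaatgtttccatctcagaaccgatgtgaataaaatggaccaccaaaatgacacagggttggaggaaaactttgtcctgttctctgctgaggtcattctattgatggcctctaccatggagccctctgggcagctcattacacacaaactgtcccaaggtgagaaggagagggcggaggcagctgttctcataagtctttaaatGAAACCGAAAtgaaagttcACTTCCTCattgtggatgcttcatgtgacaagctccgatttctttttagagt
C1qc: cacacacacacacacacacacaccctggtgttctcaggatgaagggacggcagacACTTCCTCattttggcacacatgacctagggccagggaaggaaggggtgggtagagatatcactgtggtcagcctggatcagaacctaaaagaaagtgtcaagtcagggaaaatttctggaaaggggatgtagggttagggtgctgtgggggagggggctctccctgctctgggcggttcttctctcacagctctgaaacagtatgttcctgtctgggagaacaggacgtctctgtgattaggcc
Cybb: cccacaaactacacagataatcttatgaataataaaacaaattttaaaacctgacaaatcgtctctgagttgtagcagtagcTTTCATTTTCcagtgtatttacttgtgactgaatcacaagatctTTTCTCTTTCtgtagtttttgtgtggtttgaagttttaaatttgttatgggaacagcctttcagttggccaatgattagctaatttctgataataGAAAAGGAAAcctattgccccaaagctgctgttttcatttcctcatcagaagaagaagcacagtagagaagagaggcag
Ifi205: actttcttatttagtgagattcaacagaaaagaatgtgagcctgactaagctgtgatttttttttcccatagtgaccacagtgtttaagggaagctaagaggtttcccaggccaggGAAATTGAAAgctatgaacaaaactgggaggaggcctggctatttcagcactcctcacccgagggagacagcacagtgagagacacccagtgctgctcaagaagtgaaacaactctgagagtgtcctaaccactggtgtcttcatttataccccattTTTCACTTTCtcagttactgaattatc
Positions are those of the first capital of each match, counted from the start site. In *Ctss* the ISRE core begins 21 bases before the start, and the PU.1 sequence begins 2 bases before it and runs past it. The PU.1 sequence in *C1qc* begins 195 bases before the start, and the ISRE cores in *Cybb* 168, 124 and 29 bases before it. In *Ifi205* the ISRE cores begin 134 bases before and 24 after the start. Of the 140 genes that rose, 103 had a promoter in the RefSeq table. GAGGAAGT occurred in 9 of their 129 promoters (6.98%), and in 3.20% of all 32851 promoters. The ISRE core occurred in 12 of the 129 (9.30%), and in 3.44% of all promoters. Of the 66 genes that fell, 49 had promoters, and among these 52 promoters 0 held GAGGAAGT and 1 held the ISRE core. A match of letters is a description and was not tested as a binding site.

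Of 17 measured genes of the Kupffer cell list, 15 were higher on average, 7 with *P* under 0.05, and 4 passed the criteria: *Hmox1*, *Clec1b*, *Cdh5* and *Vsig4*. Over all genes, 10837 of 22184 were higher on average, 3.24% were higher at limma *P* under 0.05, and 0.631% passed upwards. Neither *Cdh5*, best known as the cadherin of endothelial junctions, nor *Hmox1*, the haem oxygenase that breaks down haem, is particular to Kupffer cells. *Vsig4*, the complement receptor of Kupffer cells, had 211, 344 and 408 in formerly obese against 163, 222 and 296 in lean mice. It had 177, 299 and 371 in formerly obese refed against 85.2, 236 and 268 in lean refed mice. Both pairs overlapped, and *Vsig4* rose by 0.54 (exact permutation *P*=0.00422, SE 0.170). *Hmox1* rose by 0.55 (exact permutation *P*=0.000857, SE 0.161) and lay above the lean mean in 12 of 12 livers. *Clec1b*, a C-type lectin, rose by 0.29 (exact permutation *P*=0.00304), and *Cdh5* by 0.28 (*P*=0.00918).

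The count of Kupffer cell genes depended on 2 refed livers. It was 8 without formerly obese refed replicate 6, in which the list had its lowest mean in that group, and 2 without lean refed replicate 6. *Clec1b* missed the fold limit without lean refed replicate 6 (0.25), formerly obese replicate 1 (0.26) or lean replicate 4 (0.26). *Cdh5* missed it without lean refed replicate 3, lean refed replicate 6 or lean replicate 1 (0.26 each). The defining markers *Clec4f* at 0.21 (exact permutation *P*=0.167), *Timd4* at 0.43 (*P*=0.0785), *Cd5l* at 0.43 (*P*=0.0228) and *Folr2* at 0.40 (*P*=0.0364) did not pass. *Marco*, a scavenger receptor, had 29.3, 33.8 and 122 in formerly obese against 14.1, 25.6 and 33.3 in lean mice, but 12.8, 20.5 and 40.7 in formerly obese refed against 17.0, 25.0 and 42.4 in lean refed mice. Its history difference was 0.96 on control diet and -0.33 after refeeding, and these differed from each other at an unadjusted *P* under 0.05 only (interaction adjusted *P*=0.944).

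Averaged over its members, the list of macrophages of any origin separated the refed groups in every liver. The mean of the 20 genes, relative to all 24 livers, ranged from -0.01 to 0.45 in formerly obese refed and from -0.69 to -0.07 in lean refed mice. On control diet it ranged from -0.11 to 0.54 in formerly obese and from -0.45 to 0.00 in lean mice. Here only formerly obese replicate 3, at -0.11, fell into the lean range. Summed linear levels of the list were 2080 to 3299 in formerly obese refed, 1302 to 2054 in lean refed, 2002 to 3388 in formerly obese and 1577 to 2261 in lean mice. The count of 15 genes that passed was 15 or 16 without any single liver.

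Markers of other cell types were read in the same way. Hepatocyte markers summed to between 44749 and 49401 in formerly obese refed and between 46909 and 48525 in lean refed mice, and of their 16 genes only *Tat* passed. Of 15 markers of monocyte-derived and lipid-associated macrophages 0 passed, and their median was 0.14. Formerly obese refed replicate 6 stood at 1.10 on that list, the other livers of its group between -0.33 and 0.29. Of 12 T cell markers 0 passed (median 0.06), with 1 at *P* under 0.05. Of 11 B and plasma cell markers, 13 neutrophil markers and 10 dendritic cell markers 0 passed. The linear average of 8 was exceeded by 7 of the neutrophil, 11 of the T cell and 9 of the dendritic cell markers. It was exceeded by 10 of the B and plasma cell markers, and the others could not pass. Summed linear levels were 91.0 to 133 over the 13 neutrophil and 113 to 140 over the 12 T cell markers, so their levels were low. Of 13 markers of NK cells and innate lymphocytes 2 passed, *Ccl5* and *Il2rb* (0.631% of all genes passed upwards), and the median was 0.12. *Klrk1* at 0.18 (exact permutation *P*=0.0139) and *Xcl1* at 0.28 (*P*=0.0292) did not. The NK count was 1 in 12 of 24 omissions of a single liver, and 3 without formerly obese refed replicate 3 or lean replicate 6. Among sinusoidal endothelial markers 1 of 16 passed, the receptor *Gpr182* at 0.33 (exact permutation *P*=0.000565), which was named after its value was seen. The cholangiocyte list had 2 of 9 past the criteria, *Sox9* at 0.41 and *Onecut1* at -0.87, and the stellate cell list 1 of 14, *Colec11* at 0.33. These 3 genes were also named after their values were seen.

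**Figure D2:**
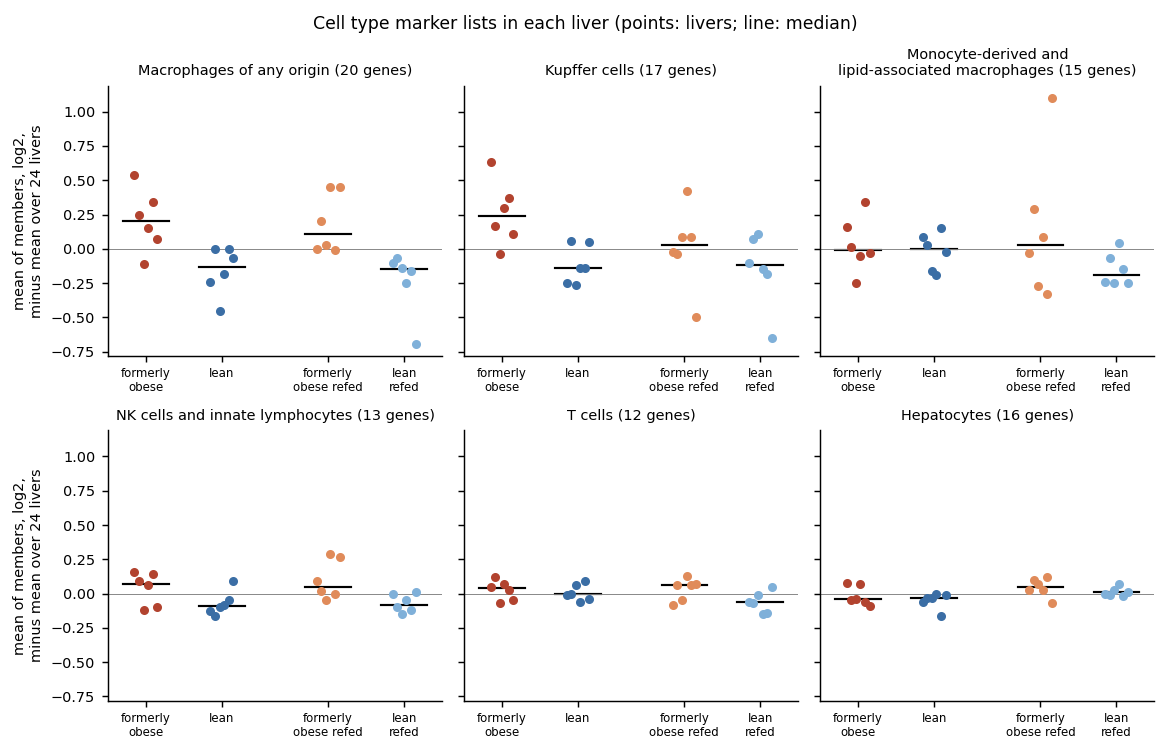
Mean log2 level of the markers of 6 cell types in each liver, relative to the mean over 24 livers, with formerly obese left of lean and formerly obese refed left of lean refed mice. Points are livers and lines are medians. The general macrophage list lies at -0.01 or above in all formerly obese refed and at -0.07 or below in all lean refed livers, while T cell and hepatocyte markers overlap throughout.

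Genes of the phagocyte oxidase, lysosome and Fc receptors repeated the pattern, in part through the same genes. Of 20 measured, 6 passed upwards and 0 downwards, with a median of 0.15, and besides *Cybb*, *Fcgr1* and *Ctss* they were *Cyba*, *Fcer1g* and *Fcgr4* at 0.43 (exact permutation *P*=0.00277, SE 0.125). Of 23 complement genes 3 passed, all C1q chains, and the median was 0.03. Over all genes 0.631% passed upwards. *C5ar1*, the receptor of the anaphylatoxin C5a, had 0.29 (exact permutation *P*=0.0108). Leukocyte genes outside the lists were also among the first by *P*. *Cd53*, a tetraspanin of leukocytes, had 53.8, 88.6 and 95.9 in formerly obese against 46.0, 55.7 and 72.0 in lean mice. It had 64.8, 75.1 and 85.0 in formerly obese refed against 46.1, 49.4 and 66.8 in lean refed mice, and both pairs overlapped. *Cd53* rose by 0.49 (exact permutation *P*=0.00022, SE 0.0982). *Ptprc*, the common leukocyte antigen CD45, rose by 0.57 (exact permutation *P*=0.000377, SE 0.133). *Wfdc17*, a secreted product of activated macrophages, rose by 0.68 (exact permutation *P*=0.000134, SE 0.139). *Ptafr*, the receptor of platelet-activating factor, rose by 0.35 (exact permutation *P*=0.00120). Leukocyte genes named after their values were seen include *Cd52* at 0.46, *Cd84* at 0.36, *Itgb2* at 0.42, *Clec12a* at 0.43 and *Ly86* at 0.39.

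Of 13 measured members of MHC class II presentation, 6 passed upwards and 0 downwards (0.631% and 0.298% of all genes). Their median was 0.24. That median was 0.11 on control diet, where 1 member was higher at limma *P* under 0.05 (2.11% of all genes), and 0.35 after refeeding, where 8 were (3.29% of all genes). *Ifi30*, the thiol reductase that unfolds antigens in lysosomes, had 58.7, 72.3 and 90.6 in formerly obese against 44.2, 53.9 and 59.8 in lean mice. It had 65.6, 70.9 and 101 in formerly obese refed against 54.1, 62.2 and 68.2 in lean refed mice. The groups touched at 1 end under both diets, and 12 of 12 livers lay above their lean mean. *Ifi30* rose by 0.41 (exact permutation *P*=2.58e-05, SE 0.0835). *H2-DMa*, which loads peptides onto class II, rose by 0.39 (exact permutation *P*=0.000747).

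*H2-Ab1*, a class II beta chain, had 149, 179 and 290 in formerly obese against 134, 163 and 244 in lean mice, and these groups overlapped widely. It had 200, 254 and 536 in formerly obese refed against 125, 139 and 192 in lean refed mice, without overlap. The history difference of *H2-Ab1* was 0.11 on control diet and 1.02 after refeeding, and the interaction was 0.92 (adjusted *P*=0.944). *H2-Aa*, the alpha chain, had 0.15 on control diet and 1.16 after refeeding, with an interaction of 1.01 (adjusted *P*=0.944). *H2-Eb1*, chosen after its value was seen, also passed at 0.43. No interaction passed an FDR of 10%, and the smallest adjusted *P* of any probe set was 0.242.

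Among interferon-stimulated genes the median was 0.14 and 31 of 35 were higher on average, against 10837 of all 22184 genes. Of the 35, *Ifi205* and *Cxcl9* passed, and 0.631% of all genes passed upwards. *Ifi205* had 16.5, 18.5 and 28.4 in formerly obese against 7.61, 11.8 and 14.4 in lean mice, without overlap. It had 11.8, 22.2 and 40.8 in formerly obese refed against 10.3, 12.9 and 15.5 in lean refed mice, where the lowest formerly obese refed liver fell among the lean refed ones. *Ifi205* rose 1.72-fold, by 0.78 (exact permutation *P*=5.39e-05, SE 0.154). *Cxcl9*, a chemokine induced by interferon gamma, had 146, 259 and 328 in formerly obese against 82.7, 189 and 331 in lean mice. It had 173, 224 and 441 in formerly obese refed against 82.7, 117 and 199 in lean refed mice. Both pairs overlapped, and *Cxcl9* rose by 0.72 (exact permutation *P*=0.00735, SE 0.221). *Cxcl10* at 0.48 (exact permutation *P*=0.0558) and *Ifit3* at 0.24 (*P*=0.0602) did not pass.

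Chemokine genes that passed were *Ccl5*, *Cxcl9* and *Ccl6*, 3 of 27 measured (0.631% of all genes passed upwards), with a median of 0.11. *Ccl5*, an attractant of T cells and monocytes, had 74.9, 108 and 142 in formerly obese against 60.3, 73.5 and 88.7 in lean mice. It had 70.8, 145 and 248 in formerly obese refed against 53.4, 77.3 and 96.8 in lean refed mice. The upper livers of both groups with a history of obesity exceeded all of their lean counterparts, and *Ccl5* rose by 0.68 (exact permutation *P*=0.000743, SE 0.162). *Ccl6* rose by 0.43 (exact permutation *P*=0.0101), but its limma *P* reached up to 0.0173 and the call was lost in 13 of 24 omissions of a single liver. *Cxcl16* had 0.35 (exact permutation *P*=0.0265). *Il2rb*, a subunit of the receptors of IL2 and IL15, had 9.29, 9.98 and 11.9 in formerly obese against 6.22, 7.92 and 9.31 in lean mice. It had 6.59, 9.86 and 12.4 in formerly obese refed against 7.54, 8.02 and 12.1 in lean refed mice. These levels were near the limit of 8, and the rise of *Il2rb* by 0.29 (exact permutation *P*=0.0119) was lost in 13 of 24 omissions.

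In the NF-kappa-B list 18 of 22 genes were higher on average, and *Rel* and *Nfkbiz* passed. Of all genes, 10837 of 22184 were higher on average and 0.631% passed upwards. *Rel*, an NF-kappa-B subunit of immune cells, had 45.9, 55.5 and 61.1 in formerly obese against 35.0, 41.2 and 50.2 in lean mice. It had 41.0, 57.4 and 78.8 in formerly obese refed against 30.4, 45.4 and 59.7 in lean refed mice, and both pairs overlapped. *Rel* rose by 0.40 (exact permutation *P*=0.000745). The atypical inhibitor *Nfkbiz* rose by 0.29 (exact permutation *P*=0.000328), and without formerly obese refed replicate 4 it missed the fold limit at 0.25. The count of 2 was then 1, and it was 4 without formerly obese refed replicate 3 or lean refed replicate 4. *Nfkbia*, the inhibitor that NF-kappa-B itself induces, had 155, 168 and 196 in formerly obese against 128, 145 and 180 in lean mice. It had 154, 170 and 188 in formerly obese refed against 127, 137 and 160 in lean refed mice. Its 12 livers all lay above their lean mean, but its 1.19-fold difference (exact permutation *P*=0.000281) missed the fold limit. *Tnf* at 0.15 (exact permutation *P*=0.191), *Il1b* at 0.41 (*P*=0.0658) and *Vcam1* at 0.40 (*P*=0.0347) did not pass. *Il6* had -0.03 (exact permutation *P*=0.693), with group means from 4.65 in formerly obese to 4.90 in lean mice. These lay below the linear average of 8, so *Il6* could not pass whatever its change.

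Of 23 fibrosis regulators 19 were higher on average (10837 of 22184 over all genes). *Tgfbi*, an extracellular protein induced by TGF-beta, was the only member to pass (0.631% of all genes passed upwards). It had 112, 145 and 166 in formerly obese against 91.3, 136 and 157 in lean mice. It had 151, 165 and 278 in formerly obese refed against 87.5, 125 and 149 in lean refed mice, without overlap. *Tgfbi* rose by 0.36 (exact permutation *P*=0.00446, SE 0.109), with 0.13 on control diet and 0.59 after refeeding. *Timp3* had 0.30 (exact permutation *P*=0.0118), *Plaur* 0.22 (*P*=0.0191, 1.16-fold) and *Mmp13* 0.24 (*P*=0.0456). Without formerly obese refed replicate 4 the count was 3. Of 26 genes of collagens and matrix 0 passed, with a median of 0.08. Formerly obese refed replicate 6 stood apart on these lists. Its mean was 0.75 on fibrosis regulators (others of its group -0.23 to 0.18), 0.81 on collagens and matrix (others -0.15 to 0.24) and 1.36 on cell cycle genes (others -0.24 to 0.19), of which 0 of 30 passed. It also had the highest level of *Tgfbi*, which differed by 0.30 without it and still passed.

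Heat shock genes were higher on average in 17 of 17 cases (10837 of 22184 over all genes), with a median of 0.17. Of the 17, 3 passed upwards, against 0.631% of all genes. *Cryab*, a small heat shock protein, had 60.2, 62.4 and 73.1 in formerly obese against 36.2, 45.1 and 55.2 in lean mice, without overlap. It had 58.2, 70.4 and 149 in formerly obese refed against 47.4, 51.6 and 79.0 in lean refed mice. *Cryab* rose by 0.48 (exact permutation *P*=0.000164, SE 0.120), and its second probe set gave 0.28. *Stip1*, a cochaperone of HSP70 and HSP90, had 175, 222 and 259 in formerly obese against 122, 150 and 174 in lean mice, without overlap. It had 163, 227 and 252 in formerly obese refed against 168, 205 and 263 in lean refed mice, which covered almost the same range. *Stip1* rose by 0.29 (exact permutation *P*=0.00927), by 0.51 on control diet and 0.07 after refeeding, and missed the fold limit at 0.26 without lean refed replicate 6, formerly obese replicate 3 or lean replicate 6. *Hspb8* rose by 0.27 (exact permutation *P*=0.00803), a call lost in 12 of 24 omissions, and *Hsph1* had 0.41 (*P*=0.0139). *Hsph1* did not pass, but it did so in 6 of 24 omissions, with the replicate block and with all 30 livers in the fit. The count of 3 fell to 1 without lean refed replicate 6 or lean replicate 6.

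Of 18 glucocorticoid-induced genes 15 were higher on average (10837 of 22184 over all genes), with a median of 0.17. Of the 18, *Tat*, *Tsc22d3* and *Zbtb16* passed, against 0.631% of all genes upwards. *Tat*, which starts the breakdown of tyrosine in hepatocytes, had 1446, 1715 and 2010 in formerly obese against 1020, 1517 and 1823 in lean mice. It had 1780, 2235 and 2551 in formerly obese refed against 1104, 1678 and 2027 in lean refed mice. Both pairs overlapped, and *Tat* rose by 0.33 (exact permutation *P*=0.00262, SE 0.0988). *Tsc22d3*, the leucine zipper GILZ, rose by 0.35 (exact permutation *P*=0.00401, SE 0.105). *Zbtb16*, a zinc finger repressor, rose by 0.58 (exact permutation *P*=0.0121, SE 0.201). It had 46.9, 62.4 and 84.2 in formerly obese against 29.7, 39.4 and 43.8 in lean mice, without overlap. The refed groups overlapped, with 38.4, 58.9 and 153 in formerly obese refed against 28.9, 40.8 and 82.9 in lean refed mice. The call of *Zbtb16* was lost in 15 of 24 omissions, with limma *P* up to 0.0179. *Sgk1* had 0.23 (exact permutation *P*=0.0862).

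Immediate early and growth genes moved in both directions, with 2 of 24 up and 2 down (0.631% and 0.298% of all genes). *Egr1*, a zinc finger factor induced within minutes of many stimuli, had 7.76, 23 and 52.8 in formerly obese against 8.24, 12.4 and 15.1 in lean mice. It had 9.82, 34.0 and 106 in formerly obese refed against 10.8, 15.3 and 19.8 in lean refed mice. The ranges of the groups with a history of obesity enclosed those of the lean groups, and *Egr1* rose 2.04-fold, by 1.03 (exact permutation *P*=0.0132, SE 0.356). *Btg2*, an antiproliferative gene, rose by 0.57 (exact permutation *P*=0.00907, SE 0.195), by 0.12 on control diet and 1.02 after refeeding. *Myc*, the growth factor-induced transcription factor, had 14.7, 23.3 and 34.8 in formerly obese against 26.5, 44.3 and 58.9 in lean mice. It had 21.7, 25.1 and 46.5 in formerly obese refed against 19.5, 50.6 and 134 in lean refed mice. *Myc* fell by 0.84 on the log2 scale (exact permutation *P*=0.00895, SE 0.278), below the lean mean in 12 of 12 livers. *Gadd45g*, a growth arrest gene, fell by 0.90 (exact permutation *P*=0.0125, SE 0.308). Omission of single livers ended these calls in 14 cases of 24 for *Egr1*, 12 for *Btg2*, 9 for *Myc* and 16 for *Gadd45g*. The call of *Myc* also ended with all 30 livers in the fit, and that of *Gadd45g* with weighted arrays. The list's count of 4 fell to 0 without formerly obese replicate 3 or lean replicate 3.

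Of the genes that fell, *Nup62cl*, a relative of a nuclear pore protein, had the smallest *P*. It had 5.19, 6.45 and 8.83 in formerly obese against 6.83, 9.16 and 10.2 in lean mice. It had 5.72, 6.10 and 6.93 in formerly obese refed against 7.11, 8.64 and 10.7 in lean refed mice, without overlap. *Nup62cl* fell by 0.45 (exact permutation *P*=6.32e-05, SE 0.0835), at levels around the limit of 8 set on the average. *Bhlhe41*, a repressor within the circadian clock, had 16.9, 19.3 and 23.9 in formerly obese against 22, 26.0 and 32.7 in lean mice. It had 15.6, 16.7 and 20.3 in formerly obese refed against 16.6, 20.3 and 30.4 in lean refed mice. The 12 livers with a history of obesity all lay below their lean mean, and *Bhlhe41* fell by 0.37 (exact permutation *P*=0.000375, SE 0.0899). It was the only gene of 20 in the clock list to pass (0.298% of all genes passed downwards).

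*Hhex*, a homeobox factor of hepatic development, had 83.7, 131 and 169 in formerly obese against 95.2, 174 and 202 in lean mice. It had 74.7, 104 and 146 in formerly obese refed against 149, 221 and 321 in lean refed mice, without overlap. *Hhex* fell by 0.64 (exact permutation *P*=0.00189, SE 0.155). *Klb* is the coreceptor through which FGF15 and FGF21 signal in the liver. It was the only gene of 22 in the bile acid list to pass (0.298% of all genes passed downwards). *Klb* had 88.5, 111 and 153 in formerly obese against 111, 123 and 178 in lean mice. It had 57.5, 67 and 96.0 in formerly obese refed against 79.1, 108 and 142 in lean refed mice, and both pairs overlapped. *Klb* fell by 0.39 (exact permutation *P*=0.00457, SE 0.113). Its partner receptor *Fgfr4* had -0.15 (exact permutation *P*=0.151), the bile salt pump *Abcb11* -0.17 (*P*=0.0939) and the canalicular transporter *Abcc2* -0.09 (*P*=0.0999).

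Further genes that fell were *Albfm1*, of the albumin family, by 0.38 (exact permutation *P*=0.00022) and the peroxisome biogenesis factor *Pex3* by 0.27 (*P*=0.00122), which did not keep to the fold limit in 11 of 24 omissions. *Rgl3*, which acts on Ral GTPases, fell by 0.29 (exact permutation *P*=0.000187) and missed the fold limit without formerly obese replicate 4 (-0.26). The ubiquitin ligase *Trim41* fell by 0.34 (exact permutation *P*=0.000319), *Ppp1r16a* by 0.33 (*P*=0.00123), the kinase *Mapk15* by 0.39 (*P*=0.00133), *Rpp40*, a subunit of RNase P, by 0.48 (*P*=0.00322) and *Plekhb1* by 0.44 (*P*=0.00162). *Ezhip* fell by 0.31 (exact permutation *P*=0.00261), *Wfdc15a* by 0.27 (*P*=0.00147), and the olfactory receptor genes *Olfr191* and *Olfr676* by 0.84 (*P*=0.00207) and 0.28 (*P*=0.00120). The levels of *Ezhip*, *Olfr191*, *Olfr676* and *Wfdc15a* had medians of 6.21 to 14.6 in the 4 groups. The call of *Wfdc15a* was lost in 10 omissions, and that of *Olfr676* without formerly obese refed replicate 4, lean refed replicate 1, lean replicate 1 or lean replicate 6.

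**Figure D3:**
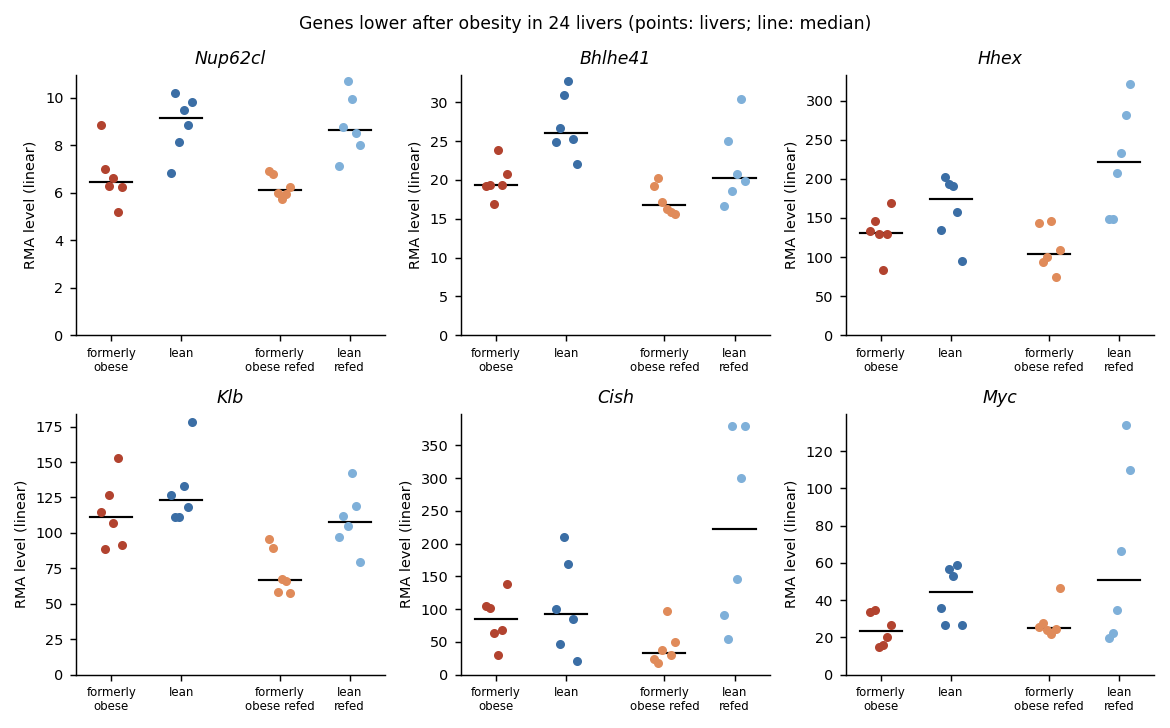
Linear RMA levels of 6 genes that fell with the history of obesity, in each of 24 livers, with formerly obese left of lean and formerly obese refed left of lean refed mice. Points are livers and lines are medians. *Nup62cl* and *Hhex* do not overlap between the refed groups, as for 0.307% of all genes. *Cish* differs after refeeding by -2.30 and on control diet by -0.10.

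Genes of the growth hormone and STAT5 axis and of sex-biased liver expression were lower on average in 22 of 27 cases (11347 of 22184 over all genes). Of these, 5 had limma *P* under 0.05 (3.11% of all genes were lower at that limit), and the list's median was -0.13. *Cish*, the feedback inhibitor that STAT5 induces, was the only one to pass (0.298% of all genes passed downwards). It had 29.1, 85.0 and 139 in formerly obese against 20.1, 92.8 and 210 in lean mice, and 16.9, 33.3 and 96.7 in formerly obese refed against 54.6, 223 and 380 in lean refed mice. The groups overlapped under both diets, and the levels of lean refed mice spanned a wide range. *Cish* fell by 1.2 (exact permutation *P*=0.0221, SE 0.396), by 0.10 on control diet and 2.30 after refeeding, and its call was lost in 8 of 24 omissions. The list's count was 0 in 8 omissions and 2 without formerly obese refed replicate 5. The list's mean was -0.70 in formerly obese refed replicate 6 (others of its group -0.22 to 0.15). In formerly obese replicate 1 it was -0.47 (others of its group -0.18 to 0.16). *Igf1*, the main target of growth hormone in the liver, had 818, 909 and 1013 in formerly obese against 901, 968 and 1212 in lean mice. It had 893, 973 and 1077 in formerly obese refed against 997, 1135 and 1295 in lean refed mice, a difference of -0.18 (exact permutation *P*=0.00652). The male-biased *Cyp4a12a* had -0.55 (exact permutation *P*=0.0548) and *Cyp4a12b* -0.54 (*P*=0.0321).

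No gene of cholesterol or fatty acid synthesis passed in the fit of all 24 livers. Of 19 genes of cholesterol synthesis and uptake 17 were higher on average (10837 of 22184 over all genes), with a median of 0.15. That median was 0.03 on control diet and 0.32 after refeeding, but 0 of the 19 passed and 2 had *P* under 0.05. *Srebf2*, the transcription factor of that pathway, had 52.7, 63.1 and 69.5 in formerly obese against 31.6, 54.4 and 60.1 in lean mice. It had 62.4, 77.0 and 86.3 in formerly obese refed against 45.7, 64.8 and 82.6 in lean refed mice. Both pairs overlapped, and *Srebf2* differed by 0.27 (exact permutation *P*=0.00772, SE 0.101). *Srebf2* passed with all 30 livers in the fit and without formerly obese refed replicate 6, lean refed replicate 2, formerly obese replicate 3 or lean replicate 1. Without lean refed replicate 2 *Pmvk* passed as well, and the list's count was 2. *Pmvk* had 0.37 (exact permutation *P*=0.0592), *Ebp* 0.13 (*P*=0.0774) and *Stard4* -0.18 (*P*=0.0595). Of 20 genes of fatty acid synthesis 0 passed. *Fasn* had 1097, 1411 and 1828 in formerly obese against 949, 1146 and 1419 in lean mice, and 302, 563 and 1081 in formerly obese refed against 237, 467 and 944 in lean refed mice. Its history difference was 0.28 (exact permutation *P*=0.195), whereas its diet difference, refed minus control diet, was -1.36 (adjusted *P*=0.00151). *Scd1* had a history difference of 0.01 (exact permutation *P*=0.946), *Srebf1* of 0.08 (*P*=0.698), *Cd36* of 0.22 (*P*=0.540) and *Lepr* of 0.07 (*P*=0.653). The diet, in the same fit, moved 137 probe sets past an FDR of 10%.

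**Figure D4:**
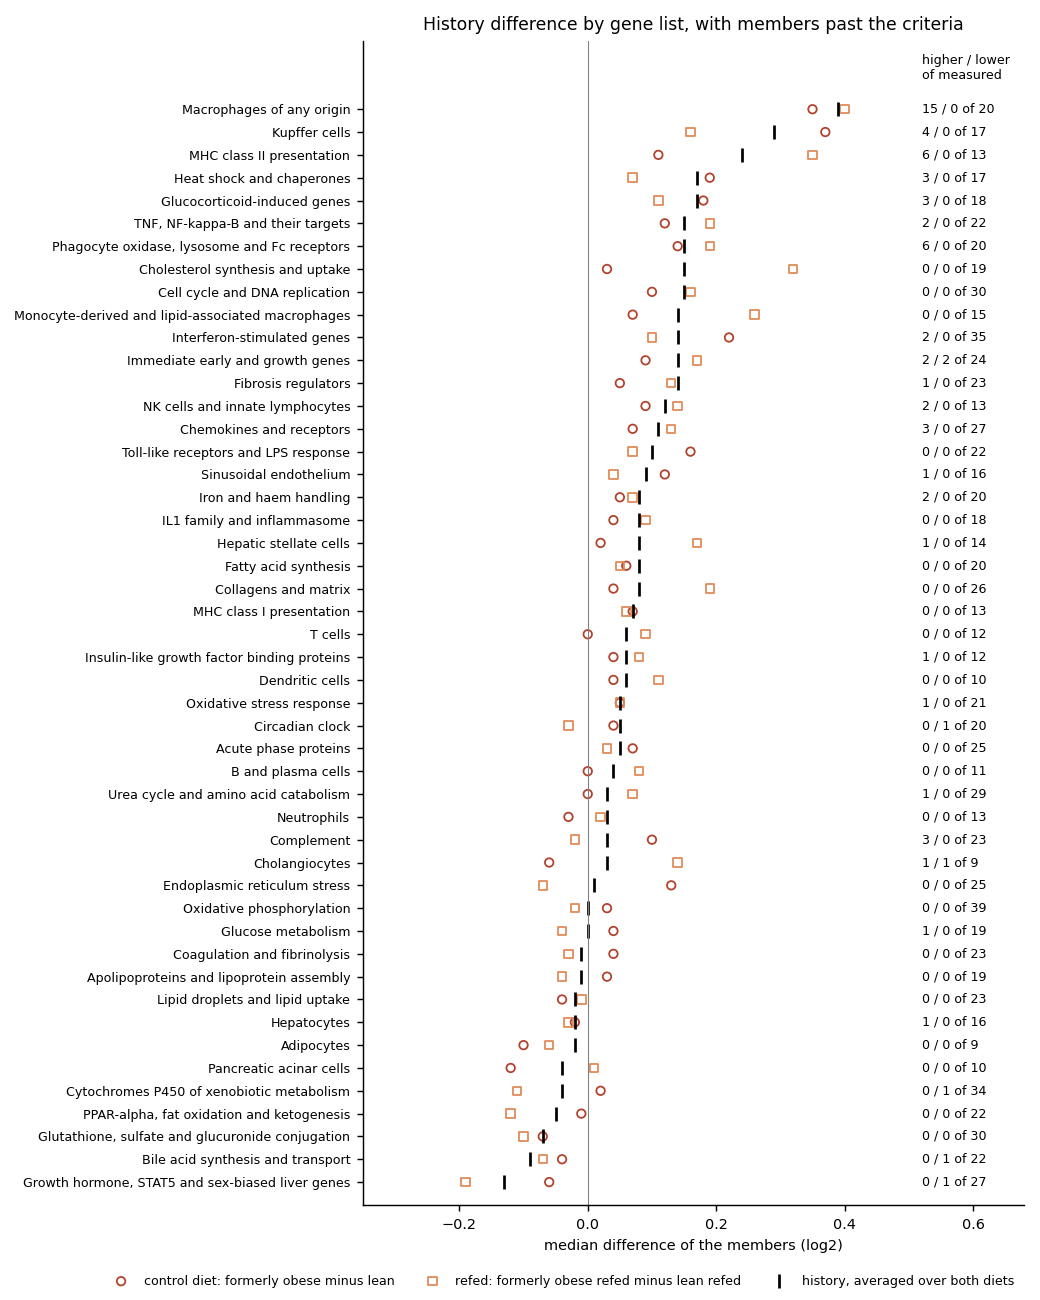
Median history difference of the members of each gene list with at least 9 measured genes, on the log2 scale, as circles on control diet, squares after refeeding and bars averaged over both. The numbers give the members past the criteria upwards and downwards out of those measured. The list of macrophages of any origin lies farthest right by its bar, with 15 of 20, and the growth hormone list farthest left by its bar at -0.13. On control diet the circle of Kupffer cells (0.37) lies right of that of macrophages (0.35).

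The history difference on control diet and the history difference after refeeding come from different livers. Across the 22184 genes they correlated with *r* of 0.145, given as a description since genes are not independent replicates. All 206 genes that passed had the same sign under both diets, which their selection on the mean favours. Of these, 56 had *P* under 0.05 under both diets, 41 upwards and 15 downwards, while 39 had it on control diet alone, 110 after refeeding alone and 1 under neither. Of all genes, 2.11% were higher and 2.49% lower at this limit on control diet, and 3.29% and 3.45% after refeeding. Over all genes, 87 (0.392%) had *P* under 0.05 under both diets in the same direction, 51 upwards and 36 downwards, and 31 (0.140%) in opposite directions.

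Genes were then chosen under 1 diet and read under the other. Of 76 genes past the criteria upwards on control diet, 49 (64.5%) were also higher after refeeding, as were 46.6% of all genes past the average, and 13 (17.1%, against 3.41%) had *P* under 0.05 there. Of 46 genes past the criteria downwards on control diet, 32 were also lower after refeeding, and 2 (4.35%, against 4.30%) had *P* under 0.05. Of 147 genes chosen upwards after refeeding, 113 (76.9%, against 55.3%) were higher on control diet and 15 (10.2%, against 2.68%) had *P* under 0.05. Of 142 chosen downwards, 88 (62.0%, against 44.7%) were lower and 8 (5.63%, against 1.87%) had *P* under 0.05. A shared direction was thus more frequent than among all genes for all 4 choices, and a *P* under 0.05 for all but the 46 genes lower on control diet.

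Among the 206 genes, 21 had an interaction *P* under 0.05, against 4.67% of all genes. The 206 were chosen by a limma *P* that uses the same spread as the interaction *P*, so these shares are not directly comparable. Of the 21, 18 had the larger history difference after refeeding, which was not counted over all genes. More of the 206 genes also had *P* under 0.05 after refeeding alone (110) than on control diet alone (39). Over all genes, 3.29% were higher and 3.45% lower at this limit after refeeding, and 2.11% and 2.49% on control diet. *Lst1*, a leukocyte gene of the MHC region, had 72.2, 75.5 and 144 in formerly obese against 67.6, 84.8 and 93.1 in lean mice. It had 71.7, 95.4 and 127 in formerly obese refed against 43.8, 56.8 and 77.0 in lean refed mice. The history difference of *Lst1* was 0.05 on control diet and 0.77 after refeeding (interaction adjusted *P*=0.935). *Cpne8*, a calcium-binding copine, had 0.13 on control diet and 0.65 after refeeding (interaction adjusted *P*=0.944). *Rec8*, a meiotic cohesin subunit, had -0.07 and -0.53 (interaction adjusted *P*=0.944), and it missed the fold limit without formerly obese replicate 2 (-0.26). *Metrnl*, a secreted protein, differed under both diets by 0.43 and 0.21, *Crybg1* by 0.33 and 0.37, and *St3gal6*, a sialyltransferase, by 0.13 and 0.45. The history differences of *Metrnl* (0.32, exact permutation *P*=0.000796), *Crybg1* (0.35, *P*=0.000241) and *St3gal6* (0.29, *P*=0.000569) passed.

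**Figure D5:**
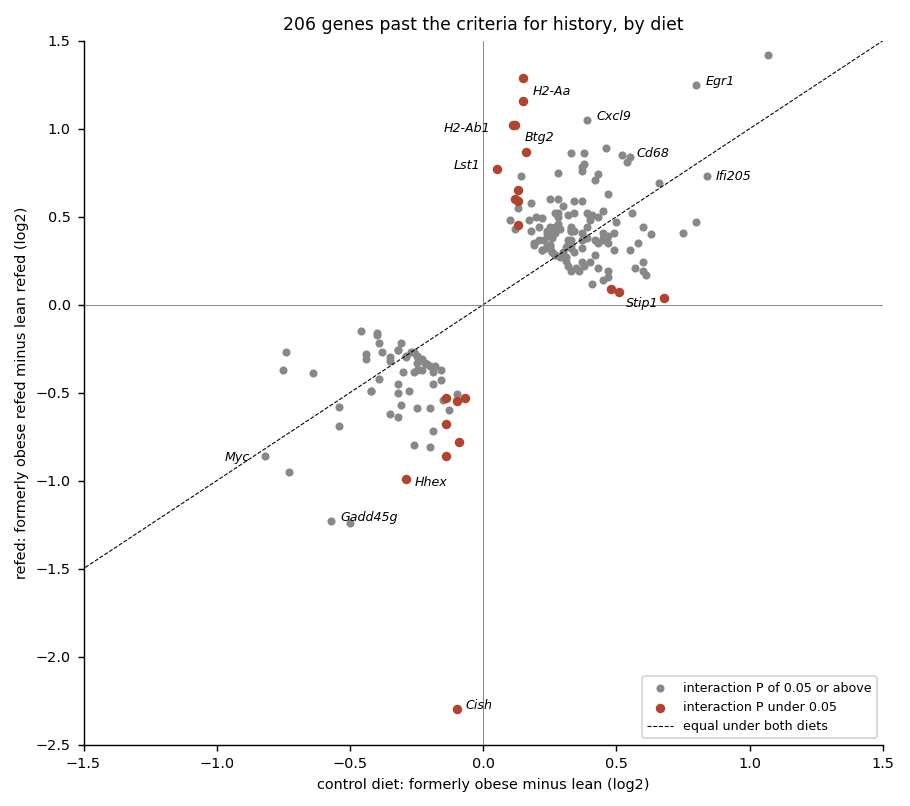
History difference after refeeding (vertical) against history difference on control diet (horizontal), both log2, for the 206 genes past the criteria. Points in red have an interaction *P* under 0.05, and the dashed line marks equal differences. *H2-Aa* and *H2-Ab1* lie near 0 on control diet and above 1 after refeeding, *Cish* at -2.30 after refeeding, and *Stip1* at 0.51 on control diet.

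Of the 62 named genes that passed, 44 did so in all 24 omissions of a single liver and in every other fit, among them *Cd68*, *C1qb*, *Cybb*, *Fcgr1*, *Tyrobp*, *Ifi30*, *Ifi205*, *Ccl5*, *Hhex* and *Klb*. Of the 32 named genes that did not pass, 11 did so in at least 1 omission, *Hsph1* in 6, *Nfkbia* and *C5ar1* in 5 each and *Srebf2* in 4. Genes past an FDR of 10% appeared in 5 of the 24 omissions. They were *Cd53*, *Cd68*, *Cybb*, *Wfdc17* and an unnamed probe set without formerly obese replicate 3, and *Nup62cl* without formerly obese replicate 1. Without formerly obese refed replicate 3 it was *Ifi205*, without lean refed replicate 3 the locus *Gm4952*, and without formerly obese refed replicate 5 a pair of unnamed probe sets.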

How the data were processed

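The authors hybridised amplified liver RNA to Affymetrix Mouse Gene 2.0 ST arrays and deposited log2 values, normalised by robust multiarray averaging (RMA) in Affymetrix Expression Console 1.4.1.46, per the submitters' processing notes. The 24 arrays correlated with *r* of 0.962 to 0.983, and signals, not counts, limit precision. Probe sets were named through the platform annotation, in which 23525 of 41345 had a single symbol, 1816 several and 16004 none. The probe set with the highest mean over 24 livers represented each gene.

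Group means were fitted with limma 3.58.1 in R 4.3.3, and the history contrast averaged both diets. The criteria (*P* under 0.01, fold above 1.2, linear average above 8) and the FDR of 10% follow the study's methods. Exact permutation tests, two-sided, exchanged histories within each diet (853776 arrangements, smallest *P* 2.34e-06). The fit was checked on simulated data. Python 3.11.15, NumPy 2.4.6, pandas 2.3.3 and Matplotlib 3.10.9 were used for the rest.

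Named genes were the 15 with the smallest *P* in each direction among those past the criteria, with locus numbers and small RNAs counted but not described, up to 4 per described list, genes the study measured by qPCR or named in liver, up to 6 with the smallest interaction *P*, and any past the FDR. The members and the 50 gene lists (998 genes, 898 measured) were chosen with earlier results of these data known, so list counts are descriptions without a test. Of 206 genes past the criteria, 16 were locus numbers and 4 small RNAs. Alternatives were other fits, filters, thresholds, a replicate block and the omission of each liver. Those for the gene lists were added after seeing the data.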

Additional observations from a re-analysis of the deposited data

Results flagged for a closer look

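In 25 of 376 groups of 6 livers, 1 liver lay far from the others, where chance gives about 18.8 (1 in 20). Formerly obese refed replicate 6 accounted for 8 of these. It had linear levels of 153 for *Btg2* (others 32.2 to 49.9), 51.8 for *Sgk1* (18.2 to 25.4), 46.5 for *Myc* (21.7 to 27.6), 33.2 for *Cpne8* (17.6 to 20.6), 15 for *C5ar1* (7.55 to 9.61) and 149 for *Cryab* (58.2 to 74.4). It was low in *Cdh5* at 102 (others 137 to 155) and *Rgl3* at 55.8 (66.1 to 72.5). Its array also had the lowest estimated weight, 0.551. Lean refed replicate 6 was low in *Ctss* at 111 (others 188 to 231), *Hmox1* at 44.0 (101 to 135) and *Cybb* at 30.1 (47.2 to 57.8). Its macrophage list mean was -0.69. The calls of *Ctss*, *Hmox1* and *Cybb* were kept without it, as without any other single liver.

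The other 14 such values were spread over genes and groups. Formerly obese refed mice had 32.2 for *Trim41* in replicate 4 and 975 for *Abcb11* in replicate 2. Lean refed mice had 37.8 for *Rpp40* in replicate 4 and 17.0 for *Lepr* in replicate 5. Formerly obese mice had 144 for *Lst1* in replicate 1, 307 for *Srebf1* and 73.1 for *Cryab* in replicate 2, 17.7 for *C1qc* in replicate 3, 5.88 for *Il6* in replicate 4 and 167 for *Albfm1* in replicate 5. Lean mice had 41.0 for *Ptafr* in replicate 1, 271 for *Cyp4a12a* in replicate 2, 31.6 for *Srebf2* in replicate 3 and 17.3 for *Tnf* in replicate 4.

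The history difference itself differed between the diets, with an interaction *P* under 0.05 in limma, in 16 of 94 named genes (17.0%), and in 4.67% of all genes. As refed minus control diet on the log2 scale, it was larger after refeeding by 0.72 for *Lst1*, 0.92 for *H2-Ab1*, 1.01 for *H2-Aa*, 0.52 for *Cpne8*, 0.90 for *Btg2*, 0.32 for *St3gal6*, 0.45 for *Mmp13* and 0.46 for *Tgfbi*. It was -2.20 for *Cish*, -0.70 for *Hhex*, -0.46 for *Rec8* and -0.39 for *Ppp1r16a*, which had the more negative difference after refeeding. It was -1.29 for *Marco*, -0.44 for *Stip1*, -0.40 for *Plaur* and -0.38 for *Cdh5*, which had the higher difference on control diet. Up to 6 of these genes were chosen for a small interaction *P*, and none passed an FDR of 10% (smallest adjusted *P* of any probe set 0.242).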

How the results depend on the processing

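Of 308 counts under the alternatives, 298 stayed within 1.5 times the value reported. With a fold limit above 1.3, 259 probe sets and 97 genes passed, and with *P* under 0.01 under both diets 7 genes were left, as stricter limits must give. Omitting 1 liver at a time gave 339 to 463 probe sets, 169 to 246 genes, 62 to 100 genes with *P* under 0.05 under both diets, 0 to 5 probe sets past the FDR, 12 to 19 named genes with an interaction, 15 to 16 macrophage, 2 to 8 Kupffer cell, 5 to 6 MHC class II, 2 interferon and 0 T cell genes. The smallest adjusted *P* in limma ranged from 0.0151 to 0.441 over the alternatives. The labels do not say whether replicate numbers pair mice. Deviations of same-numbered livers correlated with *r* of -0.11 to 0.0666 (median 0.0161), those of differently numbered livers with -0.121 to 0.138 (median -0.0111). Of 24 livers, 5 correlated best with a liver of their own number. These values show no clear pairing but cannot exclude it. With the replicate block 430 probe sets and 206 genes passed, none past the FDR (smallest adjusted *P* 0.423), with 86 genes under both diets, 14 interactions, and 15 macrophage, 4 Kupffer cell, 6 MHC class II, 2 interferon and 0 T cell genes. The block ended the calls of *Btg2*, *Ccl6*, *Hspb8* and *Zbtb16* and added those of *Cxcl16* and *Hsph1*. Weighting the arrays ended the calls of *Gadd45g*, *Hspb8*, *Pex3* and *Wfdc15a*. Centring the arrays on the median ended those of *Pex3* and *Wfdc15a*, and the fit of all 30 livers that of *Myc*. Of 2914 single-gene values, 13 turned sign, all of genes that did not pass. Within refeeding these were *Marco* (-0.33), *Srebf1* (-0.03), *Scd1* (-0.05), *Lepr* (-0.07) and *Il6* (0.02), and within control diet *Abcb11* (0.01) and *Cd36* (-0.07). Without single livers *Scd1* ranged from -0.06 to 0.05, with -0.02, -0.01 and 0.00 between, and *Lepr* from 0.00 to 0.16. The cause was not tested.

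Fold changes below 1.2 could not be called, and RMA levels near 8, as for *Nup62cl* and *Il2rb*, lie close to the background of the array. Extraction and scan batches were not given in the sources used here, so their part in the results was not tested.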
